A study of Mus musculus with 6 samples.

Results

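The transcription factor genes Sox4, Sox11, Sox12, En1 and En2 were followed in a mouse gonadotrope-type cell line given activin A. They are 5 of the 18193 genes named on the array, and all their probe sets were taken, 19 of 45101: 8 for Sox4, 6 for Sox11, 3 for Sox12 and 1 each for En1 and En2. The genes were selected on their ratios of activin over vehicle, which were already known, so those ratios are given as a description and carry no test. The cells were LβT2 (Lbeta T2), a mature mouse pituitary line. They were kept for 16 h in medium without serum and phenol red, then given recombinant human activin A at 30 ng/ml or its NaCl and Tris buffer as vehicle. RNA was taken after 1, 2 or 6 h of either treatment. Each of the 6 combinations of treatment and time was hybridised to 1 Affymetrix array, and the labels name no repeat cultures. A difference at a single time therefore has no replicate check, and a single cell line cannot speak for gonadotropes in the gland.

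Sox4, Sox11 and Sox12 form the SoxC group of HMG-box transcription factors, which bind the minor groove of DNA and bend it. They are known from neuronal and progenitor differentiation, where Sox4 and Sox11 act largely as activators with overlapping roles, and Sox4 is a known target of TGF-beta family signalling in several cell types. Engrailed 1 and 2 are homeodomain repressors that recruit Groucho-type co-repressors (the Tle proteins) and bind DNA with Pbx partners. They are best known for patterning the boundary of midbrain and hindbrain and for the survival of dopamine neurons. Activin binds serine-threonine kinase receptors, which activate Smad2 and Smad3, and these act on genes together with Smad4.

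RefSeq promoter windows on assembly GRCm38.p6 were at hand for 4 of the 5 genes: Sox4, Sox11, Sox12 and En1. The 3 SoxC windows are shown because Sox4 and Sox11 had probe sets that read higher with activin on every array and Sox12 had none. Each line gives the 250 bases before the annotated transcript start, 5′ to 3′ on the gene's own strand. Capitals mark the Smad element core CAGAC and the CCAAT box, each on either strand.
Sox4, chr13:28953700-28953949, minus strand: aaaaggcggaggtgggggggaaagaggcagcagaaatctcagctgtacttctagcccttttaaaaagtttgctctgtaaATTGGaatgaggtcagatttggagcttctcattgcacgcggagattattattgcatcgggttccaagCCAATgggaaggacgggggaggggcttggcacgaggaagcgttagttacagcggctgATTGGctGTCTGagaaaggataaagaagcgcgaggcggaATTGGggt
Sox11, chr12:27342719-27342968, minus strand: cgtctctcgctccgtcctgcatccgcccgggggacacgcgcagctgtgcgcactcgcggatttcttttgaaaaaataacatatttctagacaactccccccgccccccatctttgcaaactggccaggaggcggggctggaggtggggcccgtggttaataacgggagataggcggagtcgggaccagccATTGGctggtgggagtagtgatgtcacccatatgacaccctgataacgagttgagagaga
Sox12, chr2:152398047-152398296, minus strand: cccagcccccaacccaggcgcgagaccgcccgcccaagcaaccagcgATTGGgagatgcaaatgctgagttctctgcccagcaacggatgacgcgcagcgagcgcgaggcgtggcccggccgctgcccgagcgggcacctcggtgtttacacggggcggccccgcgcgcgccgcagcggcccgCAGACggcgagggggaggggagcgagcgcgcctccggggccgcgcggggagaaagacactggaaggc
The Sox4 window held 1 such core, from 40 to 36 bases before the start on the opposite strand, and 4 CCAAT boxes. The Sox11 window held no such core and 1 CCAAT box, and the Sox12 window held 1 of each. Of all 32851 windows of this length, 42.2% held CAGAC and 33.8% held CCAAT, so at least 1 match to either word is common. At least 2 CCAAT boxes were in 10.1% of the windows, and the share with 4 was not counted. The En1 window held 2 CCAAT boxes and no such core. The Smad palindrome GTCTAGAC, which contains no CAGAC, the SoxC-type core AACAAAG and the homeodomain core TAATTA were in none of the 4 windows. They were in 0.167%, 5.03% and 4.84% of all windows, again on either strand. CCAAT was added to the search after the windows had been read. A match is a run of letters and no evidence of a bound factor.

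**Figure D1:**
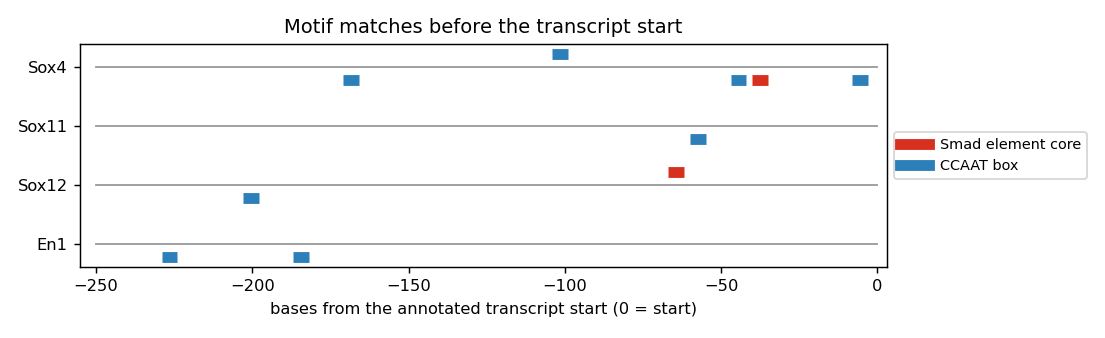
Motif matches in the 250 bases before the annotated start of Sox4, Sox11, Sox12 and En1 (horizontal axis, bases from the start). Red marks are the Smad element core and blue marks the CCAAT box, above each line for the gene's own strand and below it for the opposite strand; Sox4 has 4 blue marks and Sox12 and Sox4 have 1 red mark each.

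The signals were those of the array software, scaled by the depositors. The trimmed mean of each array lay between 499.8 and 500.05. Probe sets were compared where their mean log2 signal over the 6 arrays exceeded that of the median probe set, which corresponds to a signal of 155.2. This left 22518 probe sets, among them 16 of the 19 described here: 7 for Sox4, 6 for Sox11, 2 for Sox12 and 1 for En2. Of 5 gonadotrope markers, Cga, Lhb, Nr5a1 and Gnrhr passed and Fshb did not. The summed gonadotrope signal lay between 18899.6 and 24046.6 over the 6 arrays. Of 6 markers of other pituitary cells only Tshb and Pomc passed, with Prl, Gh, Sox2 and S100b under the filter value. Of 4 markers of midbrain dopamine neurons, where engrailed is known to act, only Slc18a2 passed. Th, Slc6a3 and Pitx3 did not. Of 6 markers of fibroblasts, endothelium and blood, Col1a2, Pecam1 and Cdh5 passed. All 3 activin signals of Pecam1, an endothelial and platelet adhesion molecule, were above its 3 vehicle signals, as in 6.17% of all probe sets. Mean log2 ratios were 0.72 for Pecam1, 0.03 for Col1a2 and -0.04 for Cdh5. The summed signal of these 6 lay between 1941.8 and 2198.7 with vehicle and between 2143.1 and 2592.8 with activin, and that of the other pituitary markers between 710.6 and 810.6 with vehicle and between 875.6 and 982.1 with activin. No marker was at 0, and the part of these markers in the ratios below was not tested. Skil, Smad7, Inhbb and Cdkn2b were listed as targets of activin or TGF-beta with earlier results of these data known, so they are no independent check. Each read higher on all 3 activin arrays than on all 3 vehicle arrays, as did 6.17% of all probe sets. For Skil the signals with vehicle were 947.3, 924.3 and 1134.6 at 1, 2 and 6 h, and those with activin 2999.3, 2023.3 and 1423.9. The control probe set for the 5′ end of 18S ribosomal RNA stood apart on the activin array of 1 h, at 12201.8 against 610.1 on the vehicle array of that time and at most 1171.1 elsewhere. The 3′ to 5′ ratio of the actin control lay between 1.14 and 1.27 over the arrays. With the 1 h arrays left out, the mean log2 ratio was 0.73 for En2, while that of Sox4 1449370_at went from 0.25 to 0.09 and that of Sox11 1431225_at from 0.09 to 0.0075.

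The engrailed genes differed in signal level, En2 being past the filter and En1 under it. En2 (probe set 1418868_at) read 1065.7, 1157.4 and 1350.2 with vehicle at 1, 2 and 6 h. With activin it read 1703.8, 2115.9 and 2030.1 at the same times. The lowest activin signal lay above the highest vehicle signal, and En2 was higher at all times, the folds being 1.60, 1.83 and 1.504 in that order. The mean log2 ratio was 0.71 ± 0.14 (SD over the 3 times, which are not replicates). The vehicle arrays themselves spanned 0.34 on the log2 scale, and the ratio at each of the 3 times was wider than that span. En2 was the only one of the 5 genes with a probe set at least 1.5-fold higher at all 3 times, by a narrow margin at 6 h. It fell short at 6 h with a pseudocount of 50 and with each array centred on its median, and a Sox11 probe set described below missed the mark only at 6 h, at 1.498-fold.

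En1 (1418618_at) was under the filter value on all 6 arrays. It read 56.6, 22.9 and 25.6 with vehicle and 26.3, 5 and 13.3 with activin. The groups overlapped, since the activin signal of 1 h was above the vehicle signals of 2 and 6 h. Signals this low do not carry a ratio: the mean log2 ratio was -1.42 as deposited and 0 once signals under the filter value were raised to it. The En1 signal was thus not told apart from those of dim probe sets in these cells, while that of En2 was.

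Sox4 was represented by 8 probe sets that did not behave alike. The brightest, 1433575_at, read 4033.4, 4190.1 and 4322.5 with vehicle and 5026.2, 5839 and 5051.8 with activin at 1, 2 and 6 h. Its groups did not overlap, and its ratios were 1.25-fold, 1.39-fold and 1.17-fold. The vehicle signals were close together, spanning 0.10 on the log2 scale, so the ratio exceeded that span at each time although no ratio reached 1.5-fold.

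Past the filter, the widest Sox4 ratios came from probe sets made to 1 expressed sequence, AI428101. Probe set 1419156_at read 284.5, 226.4 and 252.8 with vehicle and 529.9, 513.8 and 333.4 with activin. All activin signals were above all vehicle signals, and the folds were 1.86, 2.27 and 1.32. This 2 h ratio, 1.18 on the log2 scale, was the largest of the 16 probe sets past the filter at any time. Probe set 1419155_a_at read 627.1, 569.1 and 597 with vehicle and 951.5, 1080.7 and 784.4 with activin, which gave 1.52-fold, 1.90-fold and 1.31-fold. Probe set 1419157_at read 532.6, 561 and 610.7 with vehicle and 716, 896.6 and 687.8 with activin, or 1.34-fold, 1.60-fold and 1.13-fold. In both the groups did not overlap, and in all 3 of these probe sets the ratio was widest at 2 h and narrowest at 6 h. The last one made to the same sequence, 1449370_at, read 376.5, 627.2 and 480.3 with vehicle and 558.4, 655.2 and 518.3 with activin. Here the groups overlapped because the vehicle array of 2 h was high. The vehicle span of 0.74 on the log2 scale was wider than any of its ratios.

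The other Sox4 probe sets gave no common direction. Probe set 1455867_at read 206.2, 189.6 and 244.7 with vehicle and 203.8, 235 and 208.3 with activin. Probe set 1458332_x_at, whose suffix marks probes that can bind other transcripts, read 412, 420.8 and 486.5 with vehicle and 432.1, 524.6 and 370.2 with activin. In both, the groups overlapped, and activin was higher at 2 h and lower at 6 h. A further probe set made to the same sequence as the latter (AV226663), 1443778_at, lay just under the filter with a geometric mean signal of 154.6. It read 155, 213.5 and 272.4 with vehicle and 71.5, 148.8 and 142.5 with activin. It alone of the 19 probe sets had all activin signals below all vehicle signals. Of all probe sets past the filter, 7.86% had this order. The log2 ratios of 1443778_at were -1.12, -0.52 and -0.93, and 4 of its 6 signals were under the filter value. Over the 7 Sox4 probe sets past the filter, the mean log2 ratio ran from -0.0024 to 0.83.

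**Figure D2:**
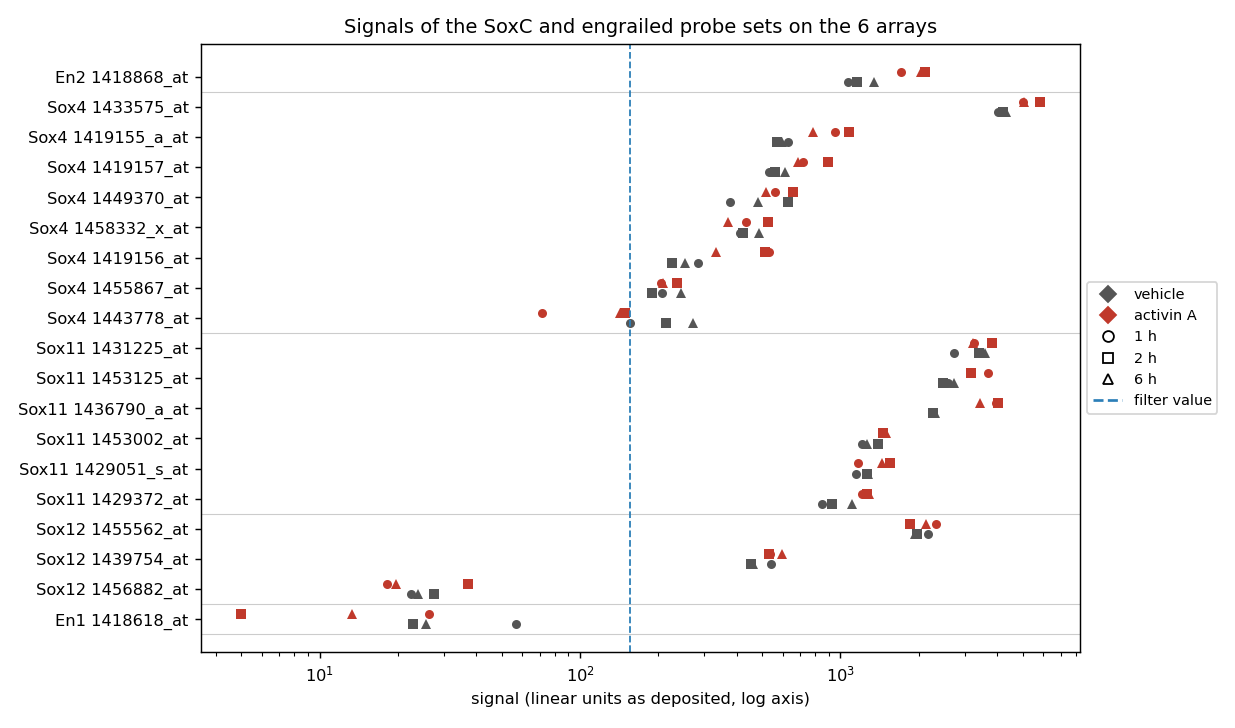
Signals of all 19 probe sets (horizontal log axis, linear units as deposited) on the 6 arrays, grey for vehicle and red for activin, with circles, squares and triangles for 1, 2 and 6 h. For En2 every red point lies right of every grey point, while the En1 points and those of Sox12 1456882_at lie left of the dashed filter value of 155.2.

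The 6 Sox11 probe sets were all past the filter and were made to 4 expressed sequences. They differed among themselves in size and, at 6 h, in sign. Probe set 1436790_a_at (BG072739), whose suffix marks probes shared by alternative transcripts of 1 gene, read 2246.5, 2259.7 and 2298.5 with vehicle and 3951.2, 4013.4 and 3444.1 with activin. The vehicle arrays spanned 0.03 on the log2 scale, the narrowest span of the 16, and every activin signal was well above them. The ratios were 1.76-fold, 1.78-fold and 1.498-fold, the last of these just short of the 1.5-fold mark used for counting.

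A middle pair was made to BM508495. Probe set 1453125_at read 2581.1, 2484.2 and 2719.1 with vehicle and 3670.1, 3158.7 and 3175.6 with activin, or 1.42-fold, 1.27-fold and 1.17-fold. Probe set 1429372_at read 846.1, 929.1 and 1105.1 with vehicle and 1206.6, 1266.8 and 1282.2 with activin, or 1.43-fold, 1.36-fold and 1.16-fold. Neither overlapped between treatments, and in each the ratio was highest at 1 h and lowest at 6 h. The vehicle signals of 1429372_at were spread over 0.39 on the log2 scale, against 0.13 for 1453125_at, so at 6 h only the latter had a ratio wider than its vehicle span.

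The pair made to BE825056 had smaller ratios. Probe set 1453002_at read 1210.9, 1393 and 1263.2 with vehicle and 1437.4, 1459 and 1491.6 with activin. The groups did not overlap, but the 2 h ratio was only 1.05-fold. Probe set 1429051_s_at, whose suffix marks probes shared by several transcripts, read 1147.8, 1267.6 and 1275.4 with vehicle and 1172.5, 1543.1 and 1443.7 with activin. Its groups overlapped, through the activin array of 1 h. The last, 1431225_at (BB656631), read 2731.7, 3402.4 and 3588.6 with vehicle and 3259.5, 3811.5 and 3236.8 with activin. These overlapped, and the log2 ratio was 0.25 at 1 h and -0.15 at 6 h.

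The mean log2 ratio of the Sox11 probe sets thus ran from 0.09 for 1431225_at to 0.74 for 1436790_a_at, a range of 0.65. Among the 95 genes with at least 6 probe sets past the filter, this range had a median of 0.40 and a 90th percentile of 0.97. The range over the 7 Sox4 probe sets past the filter was 0.83. These ranges rest on the ratios that chose the genes and are given as a description. Which stretch of the transcript each probe set reads was not analysed here, so the probe sets cannot be assigned to isoforms. Their overlap is not known either, and they are not replicates of a gene.

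**Figure D3:**
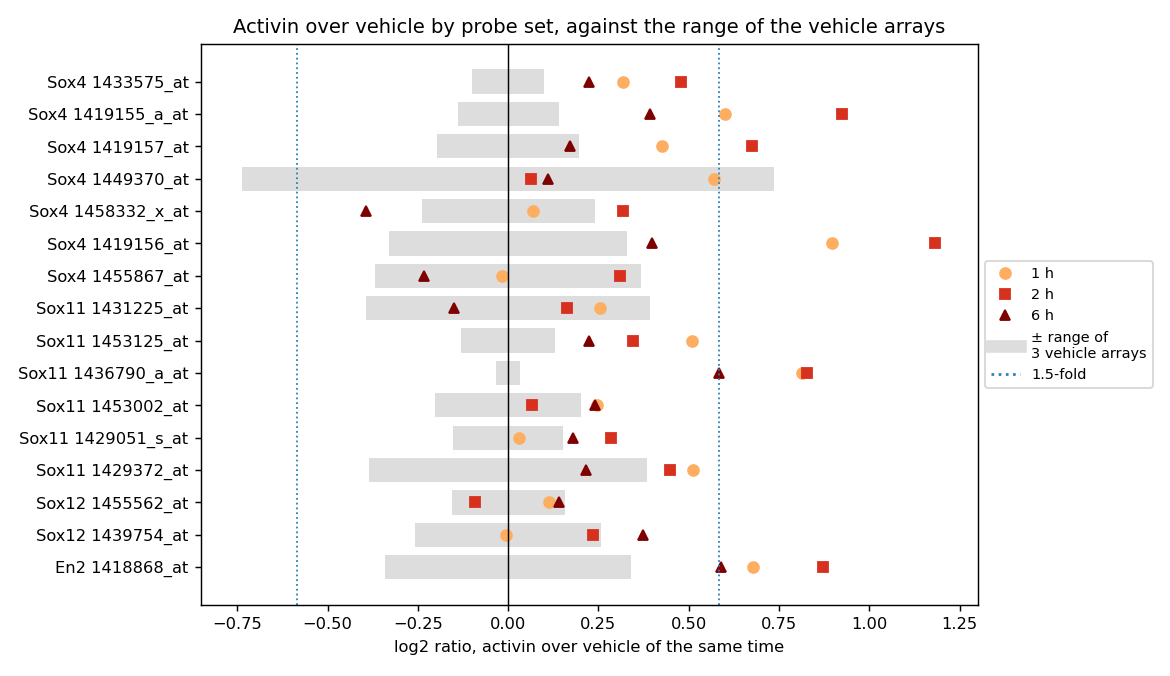
Log2 ratio of activin over vehicle (horizontal axis) for the 16 probe sets past the filter at 1, 2 and 6 h. Grey bars extend to either side of 0 by the range of the 3 vehicle arrays of that probe set, and dotted lines mark 1.5-fold; the 3 points of Sox11 1436790_a_at lie between 0.58 and 0.83 with a vehicle range of 0.03, and those of Sox11 1431225_at lie within its range of 0.39.

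Sox12 gave small ratios that changed sign. Probe set 1455562_at read 2159.4, 1961.3 and 1937 with vehicle and 2335.3, 1842 and 2134.8 with activin. Each of its log2 ratios, 0.11, -0.09 and 0.14, was within the vehicle span of 0.16. Probe set 1439754_at read 540.8, 452.5 and 461.8 with vehicle and 538.5, 532.8 and 598.2 with activin. The log2 ratios were -0.01, 0.24 and 0.37, and only the last was wider than the vehicle span of 0.26. The groups overlapped in both. The third, 1456882_at, stayed under the filter value on all 6 arrays, between 18.2 and 37.3. With 1 array a group, these values set no bound on a change in Sox12.

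Counted together, 4 of the 16 probe sets past the filter were at least 1.5-fold higher with activin at 1 h, 5 at 2 h and 1 at 6 h. The same rule took 4.05%, 3.05% and 4.14% of all 22518 probe sets at these times. The genes were chosen with these ratios known, so the counts describe them and support nothing further. None of the 16 was at least 1.5-fold lower, against 3.22%, 3.42% and 3.58% of all probe sets. This count depends on the filter: Sox4 1443778_at, just under it, was 2.17-fold lower at 1 h and 1.91-fold lower at 6 h. En1, also left out, read lower too, at signals that do not carry a ratio. All 3 activin signals were above all 3 vehicle signals in 9 of the 16: 4 for Sox4, 4 for Sox11 and that of En2. This was so for 6.17% of all probe sets, and the reverse order for 7.86%. The median log2 ratio of the 16 was 0.37, 0.33 and 0.22 at 1, 2 and 6 h, with medians over all probe sets of -0.01, -0.03 and -0.01.

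**Figure D4:**
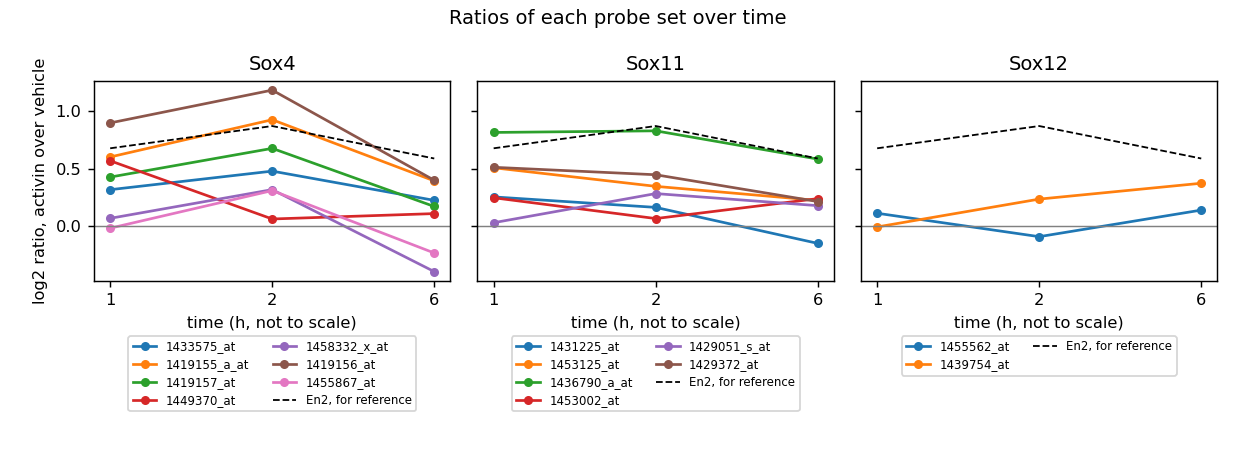
Log2 ratio of activin over vehicle (vertical axis) at 1, 2 and 6 h (horizontal axis, not to scale) for each Sox4, Sox11 and Sox12 probe set past the filter, with En2 as a dashed line in each panel. The Sox4 sets 1419156_at, 1419155_a_at and 1419157_at are highest at 2 h, with 1.18, 0.93 and 0.68, and the 6 Sox11 lines are spread from -0.15 to 0.58 at 6 h.

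Change over time was described on the vehicle arrays and tested on the means of both treatments. Between vehicle arrays alone, only Sox4 1449370_at of the 16 was at least 1.5-fold apart between 2 and 1 h, with a log2 difference of 0.74. The share of all probe sets this far apart was 4.4%. None was so between 6 and 1 h or between 6 and 2 h, where 5.46% and 4.93% of all probe sets were. Each time was then averaged over both treatments and tested with limma on all 22518 probe sets. The time difference itself does not use the ratios of activin over vehicle, but its error does, since that error is how far these ratios differ between times. The share called at an adjusted p of 0.05 was 0% of all probe sets for each of the 3 pairs of times, and 0 of the 16. At an unadjusted p under 0.05 there were 1593 probe sets for 2 h over 1 h, 2165 for 6 h over 1 h and 1681 for 6 h over 2 h. The smallest adjusted p values in limma were 0.692, 0.508 and 0.382. Of the 16, only Sox4 1449370_at had an unadjusted p under 0.05, with a log2 difference of 0.48 ± 0.16 (SE) between 2 and 1 h and an adjusted p of 0.692 in limma. The difference was 0.24 without the vehicle array of 1 h and 0.72 without the activin array of 1 h. En2 was higher at 6 h than at 1 h by 0.30 ± 0.13 (SE) on the log2 scale, which did not pass in limma (adjusted p = 0.535).

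The authors' deposited table of genes at least 1.2-fold higher at all 3 times lists Sox11 (BG072739) and En2. In the authors' deposited table the folds for Sox11 were 1.59, 1.44 and 1.23 at 1, 2 and 6 h. For En2 the authors' deposited table gave 1.36, 1.48 and 1.26. Each of these is lower than the ratio of the deposited signals of the same probe set and time, and the sources used here do not say how the folds were computed. Sox4, Sox12 and En1 are not among the 47 genes listed in that table.

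The other Sox genes mostly lay under the filter in these cells. Of 16 Sox genes outside the SoxC group all had a probe set, and only Sox3, Sox10, Sox13 and Sox21 passed the filter. Sox3, a pituitary development factor, read 164.2, 280.2 and 181 with vehicle and 241.2, 301.9 and 236.2 with activin at 1, 2 and 6 h. Its groups overlapped, with a mean log2 ratio of 0.35. Sox21, a SoxB-type repressor, read 515.4, 499.2 and 321.8 with vehicle and 511.4, 154.3 and 631.7 with activin. It was at least 1.5-fold lower at 2 h and at least 1.5-fold higher at 6 h, where the shares of all probe sets were 3.42% and 4.14%. Sox13 had a mean log2 ratio of 0.20. None of the 4 was at least 1.5-fold apart at 1 h, where 4.05% of all probe sets were higher and 3.22% lower. In none of the 4 were the treatments free of overlap. The median log2 ratios of these 4 genes were -0.05, 0.14 and 0.41.

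Partners and reported targets of SoxC factors gave no common direction. Of 8 genes, Tubb3, Dcx, Map2 and Ezh2 passed the filter, and the groups overlapped in all 4. The neuronal tubulin Tubb3, a reported target of Sox11 and Sox4, read 519.7, 494.8 and 429.1 with vehicle and 517.2, 287.3 and 381.6 with activin. It was the 1 gene of the 4 at least 1.5-fold lower, at 2 h, and none was at least 1.5-fold higher. Of all probe sets, 3.42% were this much lower at 2 h. The microtubule binding proteins Dcx and Map2 had mean log2 ratios of 0.23 and -0.23. The median log2 ratios of the 4 were 0.09, -0.06 and -0.19.

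Of 10 partners and co-repressors of engrailed with a probe set, 9 passed the filter and Meis2 did not. At least 1.5-fold higher were 0, 2 and 1 of the 9 at 1, 2 and 6 h, and at least 1.5-fold lower 0, 1 and 2. Of all probe sets, 4.05%, 3.05% and 4.14% were this much higher and 3.22%, 3.42% and 3.58% this much lower. The 2 genes higher at 2 h were the Groucho-type co-repressors Tle3 and Tle4. Tle4 read 1146.8, 923.4 and 1245.1 with vehicle and 981.9, 1815.8 and 1935.3 with activin, a mean log2 ratio of 0.46. At 1 h its activin signal was below the vehicle signal, so the groups overlapped. Tle3 had a mean log2 ratio of 0.39. Tle2 had the opposite sign, reading 339.9, 275.7 and 375.3 with vehicle and 297.6, 215 and 196.4 with activin, a mean of -0.49. For Tle1 and Tle6 all activin signals lay below all vehicle signals, as they did for 7.86% of all probe sets. The Tle genes were thus spread to both sides, and the medians of the 9 genes were -0.07, -0.14 and -0.09.

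Genes that act with engrailed at the midbrain and hindbrain boundary were mostly under the filter value: Otx2, Gbx2, Pax5, Wnt1, Fgf8 and Fgf17 did not pass, and Pax2 was not analysed here. Pax8, Lmx1b and Cnpy1 passed, of 10 listed. Lmx1b, a LIM homeodomain factor of dopamine neurons, read 479.9, 601.5 and 462.1 with vehicle and 410.3, 248.1 and 296.2 with activin. All activin signals were below all vehicle signals, as in 7.86% of all probe sets. The mean log2 ratio of Lmx1b was -0.72, opposite in sign to that of En2. Pax8 and Cnpy1 overlapped between treatments, with means of -0.06 and 0.19. None of the 3 was at least 1.5-fold higher at any time. The share of all probe sets was 4.05%, 3.05% and 4.14% at 1, 2 and 6 h. Only Lmx1b was at least 1.5-fold lower, at 2 and 6 h, where 3.42% and 3.58% of all probe sets were. The medians of the 3 genes were -0.23, -0.29 and 0.25.

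Genes with the most similar course over the 6 arrays were found for the brightest probe set of each gene past the filter, by the root mean square difference of centred log2 signals. For En2 these were the stress-responsive gene Nupr1 at 0.084, Slain1 at 0.086 and Map3k21 at 0.089. Nupr1 read 721.6, 768 and 1001.7 with vehicle and 1247.5, 1464.6 and 1595.1 with activin. All its activin signals were above all its vehicle signals, as in 6.17% of all probe sets. It was picked for likeness to En2 on these same signals, so this is no separate result. For Sox4 1433575_at they were Bicd2 at 0.030, Srebf1, an activator of lipid synthesis genes, at 0.045, and Kitl, the ligand of the Kit receptor, at 0.049. For Sox11 1431225_at they were Wdr31, Cep162 and Phf20l1, and for Sox12 1455562_at they were 2310061I04Rik, Wrn and Dis3. That Sox11 probe set, though the brightest, had the lowest mean log2 ratio of its gene, 0.09. It was 0.74 for Sox11 1436790_a_at, for which no similar genes were sought. With so many probe sets some are always close over 6 values, so these distances describe the course and nothing more.

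Neighbouring genes were compared by gene order on GRCm38.p6. On chromosome 5, En2 has Insig1, a regulator of sterol synthesis, on one side with 1 annotated gene between them, and Cnpy1 on the other with 3 between. Insig1 read 2169.7, 1768.6 and 1729.9 with vehicle and 2969.5, 1939.5 and 2220.5 with activin. It was higher with activin at each time by a mean log2 ratio of 0.32, but the groups overlapped. Sox12 lies directly between Nrsn2 and Zcchc3, whose mean log2 ratios were -0.29 and -0.19, and in both the groups overlapped. Of the Sox4 neighbours, A330102I10Rik had a mean log2 ratio of 0.15 with overlapping groups, and 2610307P16Rik was under the filter. The neighbours of Sox11 with a probe set, Gm9866 and Dcdc2c, and those of En1, Marco and 2610027F03Rik, were all under the filter.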

How the data were processed

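Total RNA of LβT2 cells was hybridised to 6 arrays, 1 per treatment and time. The authors deposited linear intensity values from GCOS 1.4, a program named in the submitters' processing notes. The sources used here do not give its settings, and detection calls and raw scans were not used here. The authors deposited lists of folds as well, a score with a sign, holding per the file headers genes past 1.2-fold and a signal difference of 100. These folds were copied and not tested.

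Of 45101 probe sets, 64 controls were set aside, and 34945 of the rest had 1 gene in the platform annotation, 932 several and 9160 none. Symbols were updated through the RefSeq table of GRCm38.p6. Signals were taken to log2 with a pseudocount of 0 and filtered on the mean log2 over the arrays (above 7.28). Ratios were taken between arrays of the same time. Time contrasts were tested with limma 3.58.1 in R 4.3.3, treatment as a covariate, two-sided, with 2 residual degrees of freedom and a prior of 3.02, Benjamini-Hochberg over 22518 probe sets. The 2 arrays of a time differ in treatment, so this error holds any change in the activin response, and it measures the spread between single arrays. The precision of every value is limited by the number of arrays.

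The member genes, the lists and the tests were chosen with earlier results of these data known. All member probe sets are given; the 3 closest courses, the nearest genes with a probe set and the 3 widest mean ratios of each list were named by rule, each list gene by its brightest probe set. Further list genes were named after their values were seen. Alternatives were other folds, filters, pseudocounts and scalings, other limma settings and leaving out arrays. Protein sequences were not used here. Plots were made in Python 3.11.15 (matplotlib 3.10.9).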

Additional observations from a re-analysis of the deposited data

Results flagged for a closer look

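For 5 of the 16 probe sets past the filter, the log2 ratio of activin over vehicle changed sign between times. The share of all probe sets that did so was not counted, so this count is a description only. Of these 5, Sox4 1458332_x_at moved most, from 0.32 at 2 h to -0.39 at 6 h, a span of 0.71 on the log2 scale. Sox4 1455867_at spanned 0.54, from 0.31 at 2 h to -0.23 at 6 h. Sox11 1431225_at spanned 0.40, from 0.25 at 1 h to -0.15 at 6 h. Sox12 1439754_at spanned 0.38, from -0.01 at 1 h to 0.37 at 6 h. Sox12 1455562_at spanned 0.23, from -0.09 at 2 h to 0.14 at 6 h. With 1 array for each treatment and time, none of these differences between times was tested.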

How the results depend on the processing

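The counts of probe sets past a fold moved with the fold and the filter. At 1.2-fold, 9, 11 and 5 of the 16 were higher with activin at 1, 2 and 6 h and 1 was lower at 6 h, while at 2-fold the counts higher were 0, 1 and 0. At 6 h the single probe set at least 1.5-fold higher, that of En2, fell short with a pseudocount of 50 and with each array centred on its median, giving 0 both times. Without a filter on low signals, 2, 1 and 2 of the 19 were at least 1.5-fold lower at 1, 2 and 6 h. Shares of all probe sets past a fold were taken only under the main settings. The counts at other folds, filters and scalings therefore have no background to be read against. Centring on the median left the median log2 ratio of all probe sets at -0.07, 0.06 and -0.05, and no scaling moved it by more than 0.1. Across all alternatives run, the mean log2 ratio stayed between 0.63 and 0.77 for En2. For the brightest Sox4 probe set, 1433575_at, it stayed between 0.27 and 0.40. Sox11 1436790_a_at and Sox4 1419156_at were picked after the values were seen, for the highest mean ratio of their gene past the filter. For these it stayed between 0.70 and 0.82 and between 0.65 and 1.04, in that order. It crossed 0 for Sox4 1458332_x_at, from -0.16 to 0.19, for Sox4 1455867_at, from -0.12 to 0.15, and for Sox12 1456882_at, from -0.29 to 0.08, and came near 0 for Sox11 1431225_at, from 0.0075 to 0.21. For Sox4 1443778_at it went from -1.03 to -0.42, the latter with signals under the filter value raised to it. The count of 9 probe sets with all activin signals above all vehicle signals was also taken under settings chosen after seeing the data. It lay between 8, with a filter at the 70th percentile, and 11, without the 1 h arrays. Leaving out the 1 h arrays sets 2 arrays against 2, which is easier to meet, so the 11 is not comparable with the 9. No share of all probe sets was taken for these settings. In limma no alternative called a probe set for a change over time. The labels give no replicate numbers. Arrays were paired by time in the ratios, and the limma fit compared times with treatment as a covariate.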
